A study of Mus musculus with 44 samples.

Results

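The fibroblast growth factor (FGF) system was followed by 10 genes, 6 ligands and 4 receptors, through fibroblasts of the mouse mammary gland and of mammary tumors. They were taken by name from the 55486 genes of the count table: 10 rows, 1 for each of Fgf1, Fgf2, Fgf7, Fgf9, Fgf10, Fgf18, Fgfr1, Fgfr2, Fgfr3 and Fgfr4. The hosts were female En1-Cre;mTmG mice, in which green fluorescent protein stays on in every cell whose lineage once expressed Engrailed-1. They carried a transplant of control mammary tissue, of WB1P tissue (WapCre;Brca1F/F;Trp53F/F, both genes lost in mammary epithelium) or of WB1P-Myc tissue (the same alleles with a Cre-inducible Myc transgene at Col1a1). The recipients' own fat pads were not cleared. Per the paper, tumor-bearing mice were taken at end stage, but 2 of the WB1P-Myc mice are marked 8x8 in the labels and were kept as WB1P-Myc. The paper's methods give 8x8 mm as the size of an advanced tumor, smaller than at end stage. The labels do not say what the mark means. Ages were not given for the libraries.

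Fibroblasts were sorted as cells negative for the epithelial, endothelial and leukocyte surface markers, and split by green fluorescence (En1 lineage) and by CD26, the surface peptidase encoded by Dpp4. This gave 4 populations: En1+, CD26+, double+ and double-. The 44 libraries came from 13 mice, namely 3 control, 5 WB1P and 5 WB1P-Myc mice, numbered 1 to 13 in that order. Each control label carries a pair of numbers and was counted as 1 mouse, although the labels do not say whether it is a pool. Counts were summed per mouse into a CD26- class (En1+ and double-) and a CD26+ class (CD26+ and double+), which gave 25 sums. WB1P mouse 4 had only an En1+ library and therefore no CD26+ sum. A single library also made up the CD26- sums of WB1P-Myc mice 9 and 11. The same holds for the CD26+ sums of WB1P mouse 6 and of WB1P-Myc mice 10 and 11. The library of WB1P mouse 6 was the shallowest of all, with 5790599 counts. Fibroblasts from control glands are called normal fibroblasts (NFs), and those from both tumor models cancer-associated fibroblasts (CAFs). Levels are CPM, counts in every 1000000 of the library size after scaling by trimmed mean of M-values. A gene is called when the Benjamini-Hochberg adjusted p of edgeR's quasi-likelihood test over all genes tested is under 0.05, and a difference is a log2 fold change ± standard error.

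FGFs are secreted proteins that act at short range through receptor tyrosine kinases, with heparan sulfate chains as part of the complex. Fgf7 and Fgf10 are made by mesenchymal cells and act mainly on the epithelial splice form of Fgfr2, and Fgf10 is needed for formation of the mammary buds in the embryo. Fgf1 and Fgf2 lack a classical signal peptide, Fgf9 and Fgf18 act mainly on mesenchymal cells, and Sprouty and dual-specificity phosphatase genes are induced by the pathway and restrain it.

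The libraries held between 5790599 and 15240328 counts, with a median of 12818093. Dpp4 matched the sort: it lay between 0.620 and 15.3 CPM in CD26- sums and between 234 and 805 CPM in CD26+ sums. A fixed list of 7 fibroblast genes summed to between 31942 and 90197 CPM. A list of 8 pericyte and smooth muscle genes stood apart in the CD26- CAFs, where it summed to between 1940 and 9521 CPM, against 157 to 395 CPM in CD26+ CAFs and 174 to 416 CPM in NFs. A list of 6 endothelial genes summed to more on the CD26+ side. In NFs that side held 193 to 520 CPM and the CD26- side 46.7 to 68.2 CPM. In CAFs the ranges overlapped, at 72.6 to 195 and 19.4 to 79.4 CPM. By gene, 1 of the 6 was called higher in CD26+ NFs, and 2 higher and 3 lower in CD26+ CAFs. Sums of 7 immune genes overlapped between the classes, and the highest, 250 CPM, was a CD26+ CAF sum. The part of both lists in the results was not tested. In these bulk libraries fewer cells of a type and less RNA per cell cannot be told apart.

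All 10 genes passed the filter on low counts. In GRCm38 coordinates, Fgf2 lies at chr3:37348346-37410108, Fgf7 at chr2:126034658-126091185, Fgf9 at chr14:58070547-58112720, Fgf10 at chr13:118669791-118792115 and Fgf18 at chr11:33117430-33147400. The receptor genes lie at chr8:25513654-25575718 (Fgfr1), chr7:130162451-133123350 (Fgfr2), chr5:33721674-33737068 (Fgfr3) and chr13:55152640-55168759 (Fgfr4). Each row counts the whole gene, so the epithelial and mesenchymal splice forms of the receptors are not separated. Fgf2 shares 640 exonic bases with Nudt6 on the opposite strand, and Fgfr3 shares 998 with G630022F23Rik. Since the strand setting of the counting is not given in the sources used here, reads from those stretches cannot be told apart. The partners held 907 and 15 counts over all libraries, against 43530 for Fgf2 and 2907 for Fgfr3. Fgfr2 shares 314 exonic bases with Ctbp2 on the same strand, which no strand setting separates. Ctbp2 held 21878 counts over all libraries, against 6723 for Fgfr2, and the part of that stretch in the Fgfr2 counts was not tested.

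The windows upstream of 3 ligand genes were read from RefSeq. Fgf18, Fgf9 and Fgf7, whose levels in CAFs were greater on the CD26+ side as described later, have RefSeq start sites (GRCm38.p6) whose 250 upstream bases overlap no annotated exon. Those windows are shown to let their base composition be compared, with matches to 5 common promoter motifs in capitals. The windows are at chr11:33147401-33147650 on the minus strand for Fgf18, chr14:58072436-58072685 on the plus strand for Fgf9 and chr2:126034408-126034657 on the plus strand for Fgf7.
Fgf18: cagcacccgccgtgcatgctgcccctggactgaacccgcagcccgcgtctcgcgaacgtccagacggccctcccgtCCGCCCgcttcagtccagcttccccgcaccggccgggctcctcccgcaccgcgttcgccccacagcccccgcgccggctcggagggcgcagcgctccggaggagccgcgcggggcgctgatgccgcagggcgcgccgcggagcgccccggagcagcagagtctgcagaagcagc
Fgf9: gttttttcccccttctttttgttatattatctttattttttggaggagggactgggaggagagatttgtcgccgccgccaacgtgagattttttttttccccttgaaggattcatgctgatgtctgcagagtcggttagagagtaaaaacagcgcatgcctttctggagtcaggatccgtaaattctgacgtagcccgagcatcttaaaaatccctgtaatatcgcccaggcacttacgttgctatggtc
Fgf7: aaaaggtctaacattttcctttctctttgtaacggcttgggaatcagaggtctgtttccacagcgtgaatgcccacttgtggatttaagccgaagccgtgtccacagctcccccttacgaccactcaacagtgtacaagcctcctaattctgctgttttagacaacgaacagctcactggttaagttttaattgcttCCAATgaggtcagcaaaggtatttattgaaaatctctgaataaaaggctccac
The motifs searched on both strands were the GC box (GGGCGG), the TATA box (TATAAA), the CCAAT box, the AP-1 site (TGANTCA) and the E-box (CACGTG), none of which contains another. Fgf18 held 1 GC box, on the opposite strand, Fgf7 held 1 CCAAT box, and Fgf9 held none of the 5. Of 32851 RefSeq windows of the same length, 32.7% held a GC box, 33.8% a CCAAT box, 12.4% a TATA box, 6.75% an AP-1 site and 6.02% an E-box. The GC content was 77.2% for Fgf18, 44.8% for Fgf9 and 43.6% for Fgf7, against a median of 52.4% over all windows. The 3 genes thus had no motif of the 5 in common in these windows. The Fgf9 window lies inside the interval given above for that gene, so it is upstream of the RefSeq start only. Fgf2, also greater on the CD26+ side in CAFs, has a window that overlaps an exon of its own. That window is not shown, and it held 1 GC box.

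The first question was how the levels are ordered within a fibroblast, which can be asked only per length. On the scale of CPM per kilobase of exon (RPKM), Fgfr1 dominated the receptors: its mean was 51.3 ± 8.50 RPKM in CD26- NFs (SD, n = 3) and 81.7 ± 9.61 in CD26+ NFs (n = 3), 69.6 ± 35.8 in CD26- CAFs (n = 10) and 95.7 ± 46.2 in CD26+ CAFs (n = 9). It made up 89.2% to 98.4% of the 4 receptors' summed RPKM in NFs and 94.6% to 99.4% in CAFs. In CD26- NFs the receptor order was Fgfr1, then Fgfr2 at 2.38 ± 0.686 RPKM, Fgfr3 at 1.70 ± 0.162 and Fgfr4 at 0.311 ± 0.0825. The means of Fgfr2 and Fgfr3 differed by no more than 1 SD of Fgfr2 there, and Fgfr4 lay below both. In CD26+ CAFs the same order held. The mean of Fgfr1 was higher there than in CD26- NFs, and those of the other receptors were lower. Fgfr2 was at 0.648 ± 0.210 RPKM, Fgfr3 at 0.191 ± 0.0696 and Fgfr4 at 0.0487 ± 0.0308.

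The leading ligand per length differed between the groups. In CD26- NFs it was Fgf10 in 3 of 3 mice, at 16.2 ± 10.4 RPKM, and in CD26+ NFs it was Fgf2 in 3 of 3 mice, at 22.7 ± 10.6 RPKM. In CD26- CAFs the leading ligand was Fgf7 in 1 of 5 WB1P and 4 of 5 WB1P-Myc mice, and Fgf2 in the others. In CD26+ CAFs Fgf7 led in 3 of 4 WB1P and 2 of 5 WB1P-Myc mice, and Fgf18 in the others. Mean values there were 23.9 ± 8.11 RPKM for Fgf18, 23.7 ± 6.93 for Fgf7 and 16.7 ± 3.99 for Fgf2, of which Fgf18 and Fgf7 did not differ beyond their spread. Fgf1 and Fgf9 were minor in every group, and their highest means, both in WB1P-Myc CD26+ CAFs, were 1.13 and 1.18 RPKM.

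**Figure D1:**
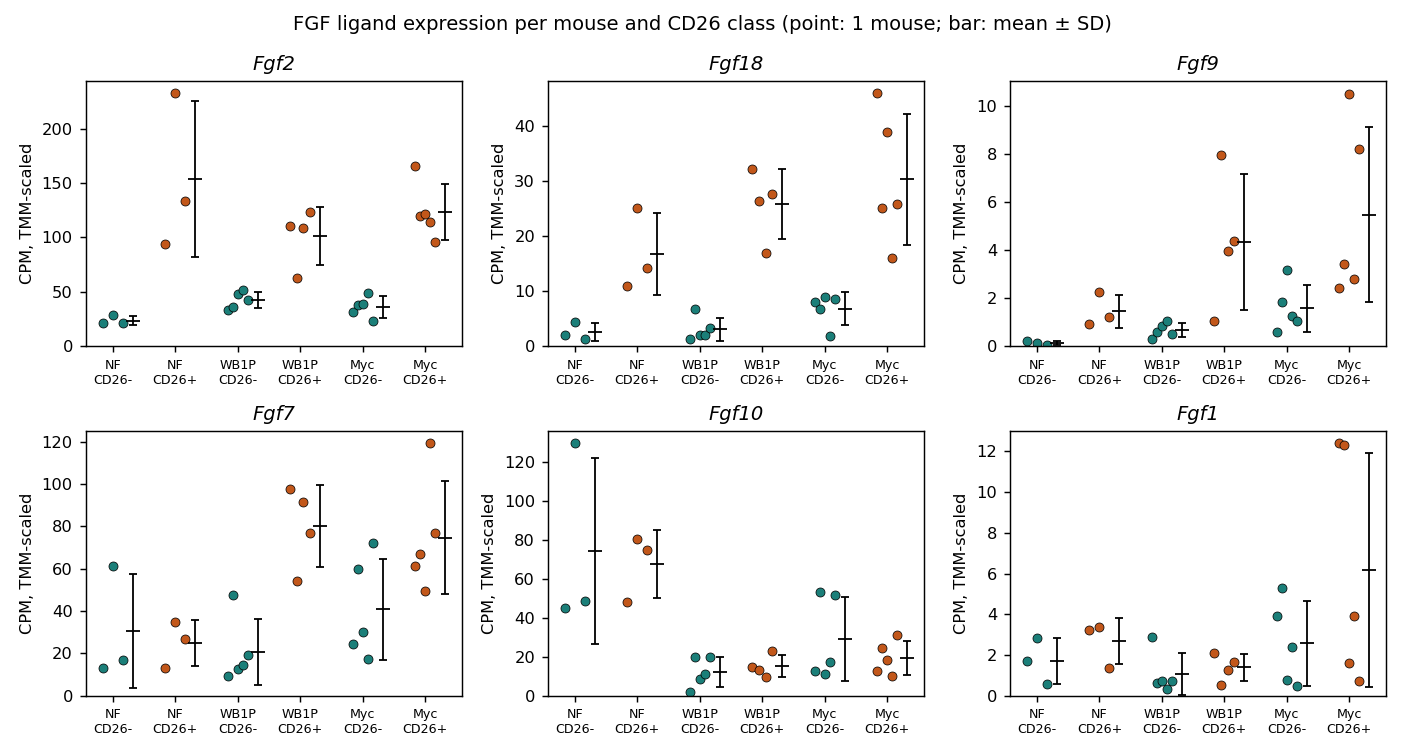
Levels of the 6 ligands in CPM on linear axes from 0, with 1 point per mouse, split into NFs, WB1P CAFs and WB1P-Myc (Myc) CAFs and by CD26 class; bars give mean ± SD over 3 to 5 mice. The means of Fgf2, Fgf18 and Fgf9 are higher in CD26+ than in CD26- fibroblasts of every condition, Fgf7 is highest in CD26+ CAFs, and Fgf10 is highest in NFs.

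CD26+ and CD26- fibroblasts of the normal gland were compared first. In CD26+ NFs 3 ligands were higher and 1 receptor was lower: Fgf2 by 2.72 ± 0.32 (adjusted p = 1.11e-05), Fgf18 by 2.73 ± 0.60 (adjusted p = 0.00838), Fgf9 by 3.41 ± 0.81 (adjusted p = 0.0152) and Fgfr3 by -1.54 ± 0.44 (adjusted p = 0.0454). That is 4 of 10 genes, where 4.17% of the 16601 genes tested were called, 2.67% as higher and 1.49% as lower. The median difference was 0.25 over the 10 genes and -0.02 over all genes.

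Fgf2, a broadly acting mitogen, lay at 20.9, 28.1 and 21.0 CPM in the CD26- NFs of mice 1, 2 and 3, and at 93.9, 233 and 134 CPM in their CD26+ NFs. The classes did not overlap, and the CD26+ value was the higher in 3 of 3 mice. Fgf18, a mesenchymal ligand of bone and lung development, lay at 2.03, 4.38 and 1.19 CPM in CD26- NFs and at 11.0, 25.1 and 14.2 CPM in CD26+ NFs, again without overlap. Fgf9 was at the edge of detection in CD26- NFs, at 0.217, 0.146 and 0.0331 CPM, and at 0.911, 2.23 and 1.19 CPM in CD26+ NFs. Fgfr3, a receptor best known for restraining growth of cartilage, went the other way, with 12.1, 11.1 and 13.4 CPM in CD26- NFs and 6.69, 2.34 and 3.51 CPM in CD26+ NFs. Fgf7 differed by -0.30 ± 0.60, Fgf10 by -0.13 ± 0.65, Fgf1 by 0.64 ± 0.91 and Fgfr4 by -1.10 ± 0.57, none of them called.

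Classes of 1 mouse share that mouse, and a fit with the mouse as a block added 2 receptors in NFs: Fgfr1 at 0.68 ± 0.17 (adjusted p = 0.0205), higher in CD26+ NFs in 3 of 3 mice, and Fgfr2 at -0.93 ± 0.26 (adjusted p = 0.0353), lower in 3 of 3. Without the block their adjusted p-values were 0.424 and 0.167. With only the NF groups fitted, 3 of the 4 calls were lost, those of Fgf9 (adjusted p = 0.0696), Fgf18 (adjusted p = 0.0800) and Fgfr3 (adjusted p = 0.115). With 3 mice, the same 3 calls also hung on single animals. Without mouse 3 the adjusted p of Fgf18 became 0.116 and that of Fgf9 0.159, without mouse 2 that of Fgf9 became 0.190, and that of Fgfr3 0.382 without mouse 3, 0.342 without mouse 2 and 0.0531 to 0.0626 without any 1 of CAF mice 5, 6, 8, 9 or 11, and 0.0538 with no filter on low counts. Of the 8 pericyte and smooth muscle genes 3 were also lower in CD26+ NFs, and their part in the Fgfr3 result was not tested.

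The same contrast in CAFs asks whether the class difference is still present in tumors. In CD26+ CAFs 5 genes were higher, namely Fgf18 (2.62 ± 0.33, adjusted p = 1.41e-06), Fgf9 (2.22 ± 0.39, adjusted p = 8.98e-05), Fgf2 (1.52 ± 0.17, adjusted p = 2.81e-07), Fgf7 (1.41 ± 0.34, adjusted p = 0.00217) and Fgfr1 (0.54 ± 0.20, adjusted p = 0.0354). The receptors Fgfr3 (-2.18 ± 0.27, adjusted p = 1.08e-06) and Fgfr2 (-0.74 ± 0.20, adjusted p = 0.00537) were lower. These 7 of 10 genes stand beside 39% of all genes called in this contrast, 19.1% as higher and 19.9% as lower. The median was 0.71 over the 10 genes and 0.01 over all genes, and of the 7 only Fgf18, Fgf9 and Fgfr3 also exceeded a log2 fold change of 2 in size, as did 7.61% of all genes.

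Fgf2 lay between 22.7 and 51.2 CPM in 10 CD26- CAF sums, with a median of 38.6 CPM, and between 63.0 and 166 CPM in 9 CD26+ sums, with a median of 114 CPM. Fgf18 lay between 1.32 and 8.88 CPM (median 4.96) in CD26- CAFs and between 16 and 46.0 CPM (median 26.4) in CD26+ CAFs. Neither gene's classes overlapped, and both were higher on the CD26+ side in 9 of 9 mice with both classes. Fgf9 lay between 0.310 and 3.15 CPM in CD26- CAFs and between 1.05 and 10.5 CPM in CD26+ CAFs, with overlap between mice but the same direction within 9 of 9.

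Fgf7, the keratinocyte growth factor, was not called in NFs and was in CAFs, with ranges of 9.38 to 72.1 CPM (median 21.9) in CD26- and 49.4 to 119 CPM (median 76.6) in CD26+ CAFs. The ranges overlapped through WB1P-Myc mice 10 and 13, whose CD26- CAFs held 59.9 and 72.1 CPM, and the CD26+ value was still the higher in 9 of 9 mice. Fgf10, a ligand of the same subfamily, was not called, at 1.86 to 53.4 CPM and 9.63 to 31.4 CPM (-0.15 ± 0.37, adjusted p = 0.786, higher in CD26+ CAFs in 4 of 9 mice). Fgf1 was not called in the unpaired fit (0.89 ± 0.53, adjusted p = 0.194), but it was with the mouse as a block (1.18 ± 0.20, adjusted p = 0.000310), and it was higher in the CD26+ class in 8 of 9 mice. Its levels differed more between mice than between classes: the CD26+ CAFs of WB1P-Myc mice 9 and 10 held 12.4 and 12.3 CPM, and the other 7 held 0.543 to 3.91 CPM.

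Among the receptors, Fgfr3 lay between 2.92 and 15.3 CPM in CD26- CAFs and between 0.773 and 1.99 CPM in CD26+ CAFs, without overlap and in the same direction in 9 of 9 mice. Fgfr2 lay between 6.66 and 16.3 CPM in CD26- CAFs and 3.45 and 9.66 CPM in CD26+ CAFs, and was higher in the CD26+ class in 1 of 9 mice. Fgfr1 was higher in the CD26+ class in 8 of 9 mice, but its difference was small against the spread between mice. Fgfr4 was not called (-0.07 ± 0.41). The Fgfr1 call was lost without any 1 of mice 4, 9, 10, 11 or 12 (adjusted p = 0.0546 to 0.0926), with no filter on low counts (0.0583) and with only the CAF groups fitted (0.0607), and without the 2 mice marked 8x8 both Fgfr1 (0.62 ± 0.25, adjusted p = 0.0615) and Fgfr2 (-0.57 ± 0.22, adjusted p = 0.0524) lost theirs. All 8 pericyte and smooth muscle genes were lower in CD26+ CAFs, and of the 7 fibroblast genes 4 were higher and 1, Pdgfrb, was lower (-2.04 ± 0.21). Their part in these results was not tested. WB1P mouse 4 had the highest Fgfr3 of the CD26- CAFs, 15.3 CPM, with a pericyte list sum of 5438 CPM, and WB1P-Myc mouse 9, with the highest list sum of 9521 CPM, had 4.81 CPM.

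**Figure D2:**
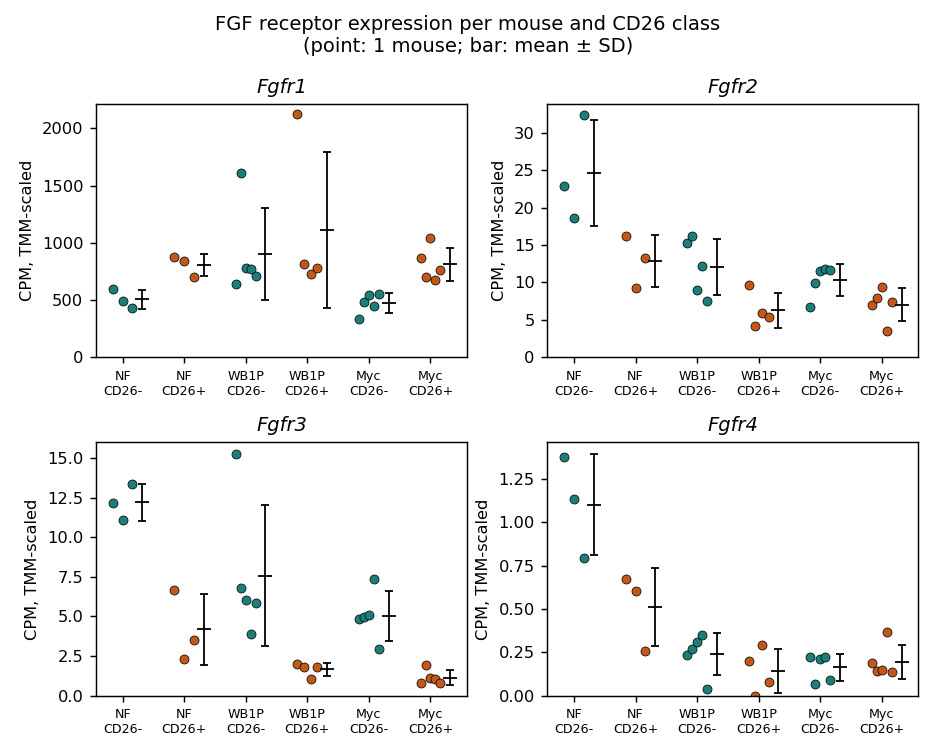
Levels of the 4 receptors in CPM on linear axes from 0, with 1 point per mouse, split as for the ligands; bars give mean ± SD over 3 to 5 mice. The mean of Fgfr3 is lower in CD26+ than in CD26- fibroblasts of every condition, those of Fgfr2 and Fgfr4 are highest in CD26- NFs, and the high Fgfr1 points in WB1P are 1 mouse with 1608 and 2126 CPM.

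Both tumor models were also fitted on their own. In WB1P CAFs, CD26+ against CD26-, 4 ligands were higher (Fgf2 1.26 ± 0.24, Fgf7 1.95 ± 0.50, Fgf9 2.65 ± 0.57 and Fgf18 3.08 ± 0.48) and Fgfr2 (-0.92 ± 0.30) and Fgfr3 (-2.19 ± 0.39) lower, 6 of 10 genes against 26% of all genes. In WB1P-Myc CAFs the called genes were Fgf2 (1.78 ± 0.24), Fgf9 (1.80 ± 0.52), Fgf18 (2.16 ± 0.45), Fgfr1 (0.78 ± 0.27) and Fgfr3 (-2.17 ± 0.37), 5 of 10 genes against 20%. Of these calls, Fgfr1 in WB1P-Myc (adjusted p = 0.0486) was lost in 14 of 19 alternatives, Fgf9 in WB1P-Myc without the 2 mice marked 8x8 or without mouse 13, and Fgfr2 in WB1P without mouse 4, 6 or 7. Fgf7 was not called in WB1P-Myc CAFs (0.87 ± 0.47, adjusted p = 0.210) except with the mouse as a block (0.98 ± 0.35, adjusted p = 0.0492). The block also called Fgf1 as higher in WB1P (adjusted p = 0.00835) and in WB1P-Myc (adjusted p = 0.00376), where the unpaired fit gave 0.52 ± 0.79 and 1.26 ± 0.71. No difference of the class difference between the models was called for the 10 genes by edgeR (0% of 16601 genes called, 549 with an unadjusted p under 0.05, and 2 called by DESeq2), with -1.08 ± 0.68 for Fgf7.

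Whether the class difference changed between NFs and CAFs was tested as an interaction. None of the 10 genes was called by edgeR, against 2.11% of all genes, and 2 had an unadjusted p under 0.05, as did 13.1% of all genes. The first was Fgf2, whose CD26 difference was smaller in CAFs by -1.20 ± 0.34 (adjusted p = 0.0754), and which was called with the mouse as a block (-1.15 ± 0.29, adjusted p = 0.0313) and by DESeq2 (-1.20 ± 0.36, adjusted p = 0.0237). The other was Fgf7, with 1.71 ± 0.70 (adjusted p = 0.253). For Fgf18 the interaction was -0.11 ± 0.64, and for Fgf10 it was -0.01 ± 0.75. It was 0.25 ± 1.06 for Fgf1, -1.19 ± 0.87 for Fgf9, -0.13 ± 0.40 for Fgfr1, 0.19 ± 0.40 for Fgfr2, -0.64 ± 0.50 for Fgfr3 and 1.04 ± 0.70 for Fgfr4.

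CAFs were next compared with NFs within each CD26 class. Both classes come from the same mice, and the comparison asks which genes of the system differ between tumor and gland. In the CD26- class 2 ligands were higher in CAFs, Fgf9 (2.92 ± 0.73, adjusted p = 0.00308) and Fgf2 (0.74 ± 0.25, adjusted p = 0.0228). The lower genes were Fgf10 (-1.97 ± 0.48, adjusted p = 0.00246), Fgfr4 (-2.48 ± 0.44, adjusted p = 0.000126), Fgfr2 (-1.14 ± 0.26, adjusted p = 0.00150) and Fgfr3 (-0.98 ± 0.33, adjusted p = 0.0194). That is 6 of 10 genes against 41.3% of all genes, 20.4% called higher and 21% lower. In the CD26+ class the higher ligands were Fgf7 (1.64 ± 0.54, adjusted p = 0.0193) and Fgf9 (1.73 ± 0.59, adjusted p = 0.0242), and the lower genes were again Fgf10 (-1.98 ± 0.49, adjusted p = 0.00324), Fgfr2 (-0.95 ± 0.27, adjusted p = 0.00847), Fgfr3 (-1.62 ± 0.34, adjusted p = 0.000916) and Fgfr4 (-1.44 ± 0.49, adjusted p = 0.0218). These are 6 of 10 genes against 41.2%, with 20.1% higher and 21.1% lower. The 10 genes' median was -0.07 in CD26- and -0.14 in CD26+ fibroblasts, against 0.01 and -0.0025 over all genes.

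Fgf10 lay at 45.0, 130 and 48.6 CPM in the CD26- NFs of mice 1, 2 and 3 and at 48.0, 80.7 and 75.0 CPM in their CD26+ NFs. In CD26+ CAFs every mouse was below every NF, with a highest value of 31.4 CPM and a median of 15.0 CPM. In CD26- CAFs the median was also 15.0 CPM, but WB1P-Myc mice 10 and 13, at 53.4 and 52.0 CPM, reached into the range of the NFs. The CD26- call was lost without control mouse 2 (-1.28 ± 0.56, adjusted p = 0.0896), whose 130 CPM was the highest value. By model, Fgf10 was lower in WB1P CD26- CAFs (-2.59 ± 0.58, adjusted p = 0.00143) and missed the threshold in WB1P-Myc CD26- CAFs (-1.34 ± 0.57, adjusted p = 0.0686), where it was called without any 1 of mice 4, 10 or 13, and the models' difference of 1.25 ± 0.52 was not called (adjusted p = 0.263).

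Fgf7 moved in the CD26+ class. CD26+ NFs held 13.2, 34.6 and 26.6 CPM, and each of the 9 CD26+ CAF sums, from 49.4 to 119 CPM, was above them. In the CD26- class NFs held 12.9, 61.5 and 17.1 CPM and CAFs 9.38 to 72.1 CPM, which overlapped throughout (-0.07 ± 0.48, adjusted p = 0.923). The CD26+ call rested on few controls, since the adjusted p became 0.0883 without control mouse 1 (1.34 ± 0.60) and 0.0627 without control mouse 3 (1.70 ± 0.66).

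Set against each other per length, and chosen after these values were seen, Fgf7 and Fgf10 changed places between gland and tumor. The Fgf7 to Fgf10 ratio of RPKM was 0.407 to 0.671 in the 3 CD26- NF sums and 0.388 to 0.607 in the 3 CD26+ NF sums, so that Fgf10 was the higher in every control mouse. In CAFs it was 1.38 to 7.14 (median 1.99) in the CD26- class. In CD26+ CAFs it was 4.72 to 13.4 in WB1P and 3.46 to 17.1 in WB1P-Myc mice, so that per length Fgf7 was the higher in every tumor-bearing mouse. This depends on the exon lengths used. The ratio of counts was 0.972 to 5.04 in CD26- CAFs, with WB1P mouse 8 below 1. It was 2.44 to 12.1 in CD26+ CAFs, 0.287 to 0.474 in CD26- NFs and 0.274 to 0.429 in CD26+ NFs. On either scale the ranges of NFs and CAFs did not overlap in either class. No test was made on the ratio.

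**Figure D3:**
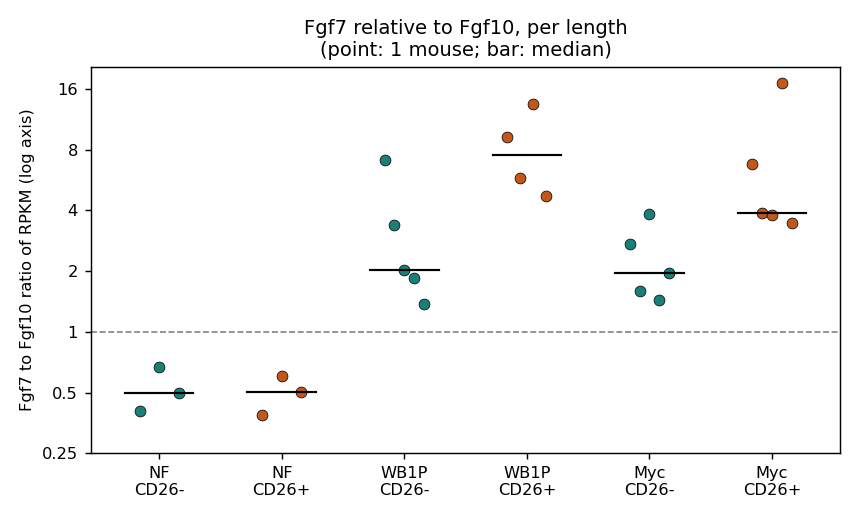
Ratio of Fgf7 to Fgf10 RPKM on a log axis, with 1 point per mouse, a bar at the median of each group and a dashed line at 1. All 6 NF sums lie below 1, at 0.388 to 0.671, and all 19 CAF sums lie above it, at 1.38 to 17.1.

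Fgf9 rose in both classes from low levels. CD26- CAFs lay at 0.310 to 3.15 CPM, all above the highest CD26- NF of 0.217 CPM. In the CD26+ class WB1P mouse 5, at 1.05 CPM, lay among the NFs (0.911 to 2.23 CPM) and the other 8 CAF sums were at 2.43 CPM or more. The CD26+ call was lost without control mouse 1 (1.48 ± 0.70, adjusted p = 0.105), control mouse 3 (1.61 ± 0.70, adjusted p = 0.0945) or WB1P mouse 6 (1.49 ± 0.59, adjusted p = 0.0522). Fgf2 rose in CD26- CAFs, in 9 of 10 sums above the mean of the NFs, and its call was lost without control mouse 1 (0.66 ± 0.28, adjusted p = 0.0723) or control mouse 3 (0.67 ± 0.32, adjusted p = 0.114). In CD26+ CAFs the difference of Fgf2 was -0.46 ± 0.24 (adjusted p = 0.124), and without control mouse 1 it was called as lower (-0.72 ± 0.25, adjusted p = 0.0343). Fgf18 differed by 0.85 ± 0.49 in CD26- and 0.74 ± 0.47 in CD26+ fibroblasts and was called in neither, nor was Fgf1, at -0.08 ± 0.74 and 0.17 ± 0.75. By model, Fgf18 was called as higher in WB1P-Myc CD26- CAFs (1.42 ± 0.54, adjusted p = 0.0423), lost in 10 of 18 alternatives. Fgf9 was not called in WB1P CD26+ CAFs (adjusted p = 0.0675), nor Fgf2 in WB1P-Myc CD26- CAFs (adjusted p = 0.0767).

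Of the 4 receptors 3 were lower in CAFs of both classes. Fgfr2 lay at 22.9, 18.6 and 32.4 CPM in CD26- NFs against 6.66 to 16.3 CPM in CD26- CAFs, without overlap. In the CD26+ class it lay at 16.2, 9.29 and 13.2 CPM in NFs and 3.45 to 9.66 CPM in CAFs, where WB1P mouse 5 and WB1P-Myc mouse 11 reached the lowest NF, and the call was lost without control mouse 1 (-0.76 ± 0.33, adjusted p = 0.0749). Fgfr3 in the CD26+ class lay at 2.34 to 6.69 CPM in NFs, above all 9 CAFs. In the CD26- class NFs held 11.1 to 13.4 CPM and 9 of 10 CAF sums 2.92 to 7.39 CPM. The exception was WB1P mouse 4 at 15.3 CPM, and without control mouse 3 the call was lost (-0.90 ± 0.39, adjusted p = 0.0902).

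Fgfr4 was scarce everywhere. It held 0.795 to 1.38 CPM in CD26- NFs and 0.0370 to 0.351 CPM in CD26- CAFs, which did not overlap, and 0.258 to 0.673 against 0 to 0.368 CPM in the CD26+ class, where the call was lost without control mouse 1 (-1.20 ± 0.58, adjusted p = 0.115) or 2 (-1.28 ± 0.59, adjusted p = 0.102). In 7 of the 44 libraries it had no count at all. Fgfr1 was not called in either class (0.37 ± 0.29 and 0.24 ± 0.29). By model it was called as higher in WB1P CD26- CAFs (0.83 ± 0.32, adjusted p = 0.0493), and that call was lost in 12 of 18 alternatives. Other measures moved with the same contrasts: of the CD26- sums, those of CAFs were the higher for all 8 pericyte and smooth muscle genes, and a list of 5 proliferation genes summed to 3.51 to 103 CPM in NFs and 141 to 396 CPM in CAFs. Of the 7 fibroblast genes, 3 were lower and 1 higher in CD26- CAFs. The lower genes were Pdgfra (median 1445 CPM in NFs and 401 CPM in CAFs), Dcn (3900 and 1071 CPM) and Lum (2292 and 697 CPM), and the higher gene was Col1a1 (0.71 ± 0.26). In the CD26+ class Lum (-0.65 ± 0.23) and Pdgfrb (-0.79 ± 0.28) were lower and Col1a1 and Col1a2 higher. The part of all these measures in the results was not tested.

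**Figure D4:**
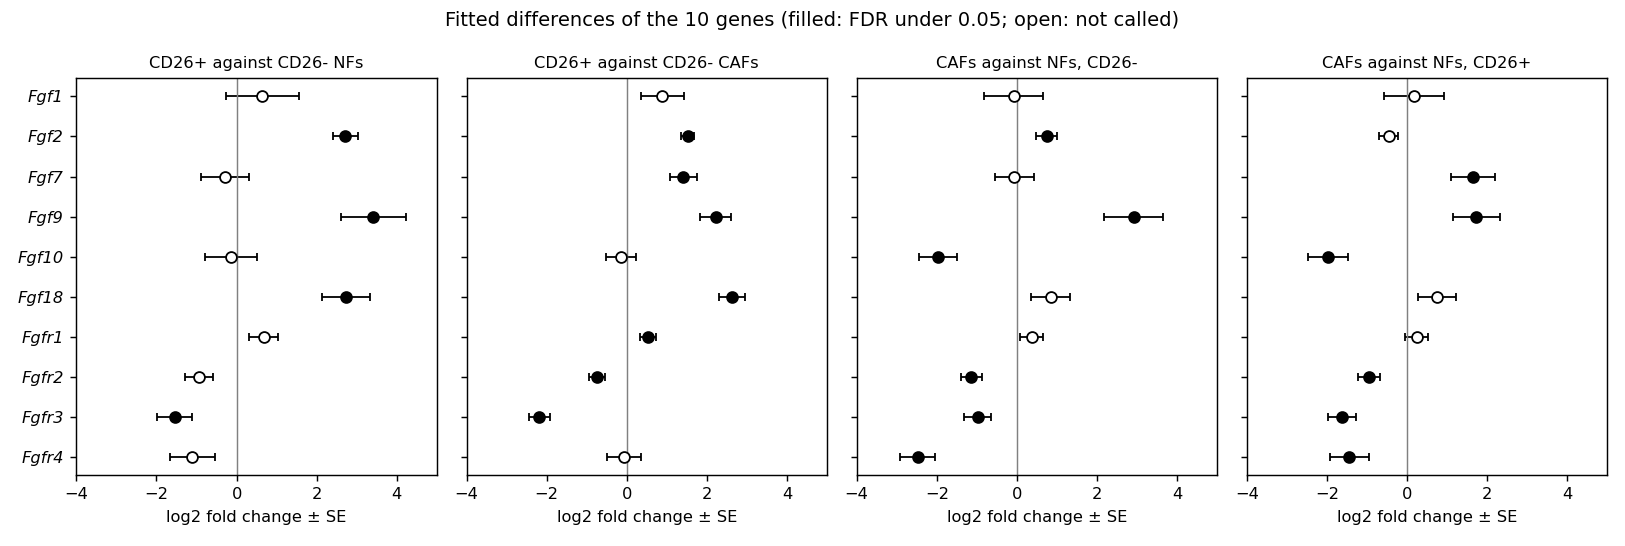
Fitted log2 fold changes of the 10 genes with bars of ± 1 SE in 4 comparisons, each on the same axis; filled points have an adjusted p under 0.05 and open points do not. Fgf2, Fgf9 and Fgf18 are filled to the right and Fgfr3 to the left in both CD26 comparisons, and Fgf10, Fgfr2, Fgfr3 and Fgfr4 are filled to the left in both comparisons of CAFs with NFs.

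The remaining contrasts gave no call among the 10 genes. Between WB1P-Myc and WB1P CAFs, edgeR called 0.512% of all genes in the CD26- class and 0% in the CD26+ class. An unadjusted p under 0.05 was found for 5 of the 10 genes in the CD26- class (14.5% of all genes) and 1 in the CD26+ class (3.89%), and DESeq2 called 1 and 0. In the CD26- class the gene DESeq2 called was Fgfr1 (-0.95 ± 0.28, adjusted p = 0.0356, by edgeR -0.93 ± 0.28 and 0.123). It lay at 640, 1608, 776, 774 and 714 CPM in WB1P mice 4 to 8 and at 333, 483, 543, 450 and 555 CPM in WB1P-Myc mice 9 to 13, without overlap. The other differences in the CD26- class were 1.34 ± 0.74 for Fgf1, -0.23 ± 0.23 for Fgf2, 0.98 ± 0.47 for Fgf7, 1.22 ± 0.55 for Fgf9, 1.25 ± 0.52 for Fgf10, 1.15 ± 0.45 for Fgf18, -0.22 ± 0.27 for Fgfr2, -0.58 ± 0.34 for Fgfr3 and -0.59 ± 0.54 for Fgfr4. Fgf1 had the largest difference in the CD26+ class, 2.08 ± 0.80 (adjusted p = 1), and mice 9 and 10 had the highest values. The other genes there lay between -0.55 ± 0.39 for Fgfr3 and 0.37 ± 0.54 for Fgf9, with Fgf2, Fgf7, Fgf10, Fgf18, Fgfr1, Fgfr2 and Fgfr4 in between.

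En1 lineage was compared within each class, library by library. Between En1+ and double- CAFs edgeR called 0% of 15584 genes, 1 of the 10 had an unadjusted p under 0.05 (4.11% of all genes), and DESeq2 called none of the 10. That gene was Fgfr4, at a median of 0.0932 CPM in En1+ and 0.224 CPM in double- CAFs. Fgf18 was lower in En1+ than in double- CAFs in 7 of 7 mice with both libraries, but the difference of -0.54 ± 0.37 had an adjusted p of 1. Fgf1, Fgf2, Fgf7, Fgf9, Fgf10, Fgfr1, Fgfr2 and Fgfr3 differed by -0.54 (Fgf9) to 0.45 (Fgf1). Between double+ and CD26+ CAFs 0.0193% of genes were called and none of the 10 had an unadjusted p under 0.05 (4.05% of all genes), with the same count of 0 by DESeq2. Fgf2 had the lowest difference, -0.25 ± 0.20 on the fitted scale, with medians of 118 CPM in double+ and 119 CPM in CD26+ CAFs. The highest was Fgf9 at 0.25 ± 0.44, and Fgf1, Fgf7, Fgf10, Fgf18, Fgfr1, Fgfr2, Fgfr3 and Fgfr4 lay in between.

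Of 16 other ligand genes of the family, 8 passed the filter on low counts. The other 8 (Fgf3, Fgf4, Fgf5, Fgf6, Fgf8, Fgf14, Fgf20 and Fgf22) never exceeded 24 counts in a sum. In NFs Fgf16 lay at 1.74 to 2.53 CPM (CD26+) and 2.05 to 4.47 CPM (CD26-). In CAFs it lay at 0.874 to 8.33 CPM (CD26+) and 0 to 1.18 CPM (CD26-). It was higher in CD26+ than in CD26- CAFs (3.87 ± 0.45, adjusted p = 5.2e-07) and lower in CD26- CAFs than in CD26- NFs (-3.03 ± 0.53, adjusted p = 0.00013). Fgf15, the intestinal hormone of bile acid control, was at 0.0725 CPM or less in CD26- NFs and at 0.219 to 5.39 CPM in CD26- CAFs, and was lower in CD26+ CAFs (0 to 0.194 CPM, adjusted p = 6.4e-06). Fgf23, the phosphate-regulating hormone of bone, was higher in CAFs of both classes, by 2.77 ± 0.73 in CD26- and 4.51 ± 0.85 in CD26+ fibroblasts. Fgf13, an intracellular member of the family, was lower in both, by -2.57 ± 0.29 and -2.0 ± 0.31. Fgf11, also intracellular, was higher in both, by 0.72 ± 0.25 and 0.82 ± 0.25. Fgf17 was higher in CD26+ than in CD26- CAFs (1.10 ± 0.38) and lower in CD26- CAFs than in CD26- NFs (-1.26 ± 0.48). Fgf12 and Fgf21 were not called in these comparisons.

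Genes that FGF signaling is known to induce, many of them also induced by other receptors, formed a list of 18 feedback inhibitors and targets. In CD26+ against CD26- CAFs, 12 of the 18 were lower and 2 higher, where 19.9% and 19.1% of all genes were, with a list median of -0.68 against 0.01 over all genes. The largest decreases were in Spry4 (-2.68 ± 0.27), Dusp4 (-2.35 ± 0.38) and Dusp6 (-2.23 ± 0.34), an antagonist of receptor tyrosine kinases and 2 phosphatases of mitogen-activated kinases. Each was lower in the CD26+ class in 9 of 9 mice. Spry4, for example, lay at 44.2 to 167 CPM (median 62.2) in CD26- and 7.33 to 19.8 CPM (median 10.8) in CD26+ CAFs, without overlap. The transcription factor genes Etv4 (-2.14 ± 0.43), Etv1 (-1.69 ± 0.22) and Etv5 (-0.79 ± 0.18) were lower as well. Spry2 (0.69 ± 0.17) and Myc (0.88 ± 0.16) were the 2 that were higher, in 9 of 9 mice each.

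In NFs none of the 18 was called by edgeR in the same contrast, with a median of -0.28 against -0.02 over all genes, and 4 had an unadjusted p under 0.05. DESeq2 called 1, and 3 were called with the mouse as a block and 1 without WB1P mouse 5. The interaction called none of the 18 in the main fit, so a difference between NFs and CAFs was not shown. An unadjusted p under 0.05 was found there for 6 of the 18, where 13.1% of all genes had one. The list median of the interaction was -0.32, against 0.0039 over all genes. Between CAFs and NFs 3 were higher and 3 lower in the CD26- class, no larger a share than the 41.3% of all genes called. Ccnd1, which encodes cyclin D1, was the largest at 4.24 ± 0.61, with CAFs at 25.3 to 135 CPM and NFs at 2.52 to 6.43 CPM, followed by Dusp4 (1.86 ± 0.58) and Spred3 (0.94 ± 0.23), and Il17rd (-1.55 ± 0.23), Egr1 (-1.32 ± 0.32) and Myc (-0.59 ± 0.23) were lower. In the CD26+ class Ccnd1 was higher (2.16 ± 0.54), and Spry4 (-1.82 ± 0.33), Il17rd (-1.14 ± 0.23) and Etv1 (-0.94 ± 0.30) were lower. The pericyte and smooth muscle genes move with the same CD26 contrast in CAFs, and their part in the lower Spry, Dusp and Etv genes was not tested.

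**Figure D5:**
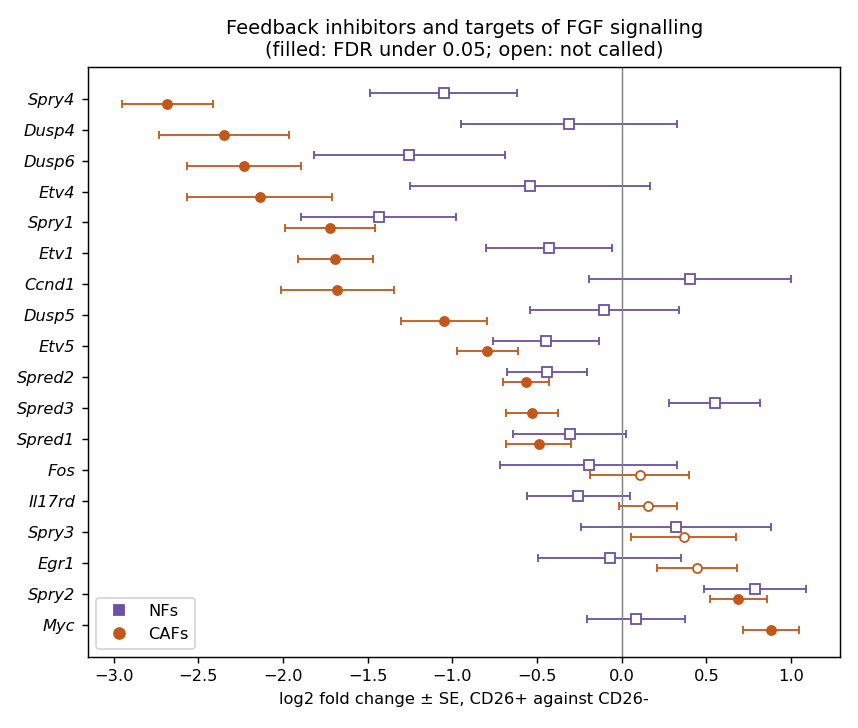
Fitted log2 fold changes of the 18 feedback inhibitors and targets between CD26+ and CD26- fibroblasts, with bars of ± 1 SE, in NFs (squares) and CAFs (circles); filled symbols have an adjusted p under 0.05. In CAFs 12 genes are filled to the left of 0 and 2 to the right, and in NFs every symbol is open.

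Of 17 co-receptors and FGF-binding proteins 14 were tested, and in CD26+ against CD26- CAFs 4 were higher and 7 lower, where 39% of all genes were called. Gpc3, a glypican carrying heparan sulfate, was the most increased (2.50 ± 0.23), followed by the FGF receptor partner Flrt2 (1.81 ± 0.23) and the syndecan Sdc4 (1.12 ± 0.23). The syndecans Sdc1 (-1.98 ± 0.28) and Sdc3 (-1.44 ± 0.26) and the adhesion molecule Ncam1 (-1.14 ± 0.16), which can bind FGF receptors, were the most decreased. In NFs, where 4.17% of all genes were called, only Flrt3 was called (1.96 ± 0.48), lost without control mouse 2 or 3. In CAFs it was lower in the CD26+ class (-0.82 ± 0.27). The interaction for Flrt3 was called at -2.78 ± 0.55 (adjusted p = 0.00708). In CAFs against NFs 7 were higher and 2 lower in the CD26- class, and 5 higher and 2 lower in the CD26+ class, beside 41.3% and 41.2% of all genes called. Ncam1 (3.94 ± 0.29 and 3.05 ± 0.27), the N-cadherin gene Cdh2 (3.71 ± 0.36 and 2.51 ± 0.34) and Sdc3 (3.30 ± 0.45 and 2.52 ± 0.43) led in both. The lower genes were Gpc3 (-1.62 ± 0.29) and Gpc6 (-1.01 ± 0.33) in the CD26- class and Flrt3 (-2.13 ± 0.35) and Sdc1 (-1.13 ± 0.36) in the CD26+ class.

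Of 14 genes for enzymes that build and trim heparan sulfate, all tested, 5 were higher and 1 lower in CD26- CAFs than in NFs, and 5 were higher and 2 lower in the CD26+ class. Shares of 41.3% and 41.2% of all genes were called in these comparisons, so that the counts lie near the background. Hs6st2, a 6-O-sulfotransferase, was higher by 5.54 ± 0.72 and 3.49 ± 0.65, and Sulf1, which removes 6-O-sulfates outside the cell, by 3.32 ± 0.27 and 2.18 ± 0.25. On the CD26- side Sulf1 lay at 36.2 to 60.4 CPM in NFs and 276 to 769 CPM in CAFs, and on the CD26+ side at 114 to 230 CPM and 593 to 1120 CPM. The CAF ranges lay above the NF ranges of the same class. Hs3st3b1 (2.84 ± 0.29 and 1.06 ± 0.26) rose in both classes, and Glce fell in both (-0.90 ± 0.18 and -1.20 ± 0.18), as did Ndst2 in the CD26+ class (-0.51 ± 0.20). In CD26+ against CD26- CAFs 6 were higher and 4 lower, where 19.1% and 19.9% of all genes were. Sulf2 (1.93 ± 0.18), Hpse (1.19 ± 0.17) and Glce (0.88 ± 0.13) were the most increased. Hs6st2 (-1.99 ± 0.36), Hs3st1 (-1.17 ± 0.28) and Hs3st3b1 (-0.91 ± 0.17) were the most decreased. In NFs 4 were higher, where 2.67% of all genes were, led by Sulf1 (1.88 ± 0.28), Sulf2 (1.41 ± 0.33) and Glce (1.18 ± 0.24).

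All 19 adaptors and signal transducers inside the cell were tested. In CD26+ against CD26- CAFs, where 39% of all genes were called, 1 was higher and 5 lower, the latter led by Pik3r1 (-1.15 ± 0.16), Gab1 (-0.95 ± 0.18) and Frs2 (-0.49 ± 0.12), which encode the regulatory subunit of phosphoinositide 3-kinase and 2 docking proteins. None was called in NFs by edgeR, 1 had an unadjusted p under 0.05, and 1 was called with the mouse as a block. In CAFs against NFs 3 were higher and 4 lower in the CD26- class and 4 higher and 8 lower in the CD26+ class, beside 41.3% and 41.2% of all genes. The kinase gene Map2k1 (1.18 ± 0.14 and 1.10 ± 0.14) was among the genes higher in both classes. Crkl (-0.61 ± 0.13) and Stat3 (-0.59 ± 0.13) were among those lower in the CD26- class, and Pik3r1 (-1.05 ± 0.22), Gab1 (-0.78 ± 0.25) and Frs2 (-0.74 ± 0.16) were the most decreased in the CD26+ class.

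Genes with the most similar profile to each of the 10 were ranked by Pearson's r of log2 CPM over the 25 sums, among genes with a mean of at least 10 CPM. These sums share mice and the class and tumor contrasts, so r is a description only. Fgf18 was followed most closely by Ly6c1 (r = 0.96), Galnt16 (0.96) and Ildr2 (0.95), and Fgf2 by Krt80 (0.95), Duox1 (0.94) and Anxa3 (0.94). Fgf7 was nearest to C4b (0.92), Rarres2 (0.90) and Prelp (0.90), Fgf9 to Cavin3 (0.88), Rab23 (0.87) and Itgb1bp1 (0.87), and Fgf10 to Selenop (0.87), Ggnbp2 (0.84) and Scg3 (0.83). For the receptors, Fgfr3 was nearest to Notch1 (0.93), Angpt2 (0.92) and Agap2 (0.92), Fgfr1 to Gramd3 (0.90), Ywhag (0.88) and Spsb1 (0.87), and Fgfr2 to Pi4k2a (0.87) and Cwc25 (0.87). Fgfr4 followed Usp19 (0.84), Crkl (0.82) and Pknox1 (0.82), and Fgf1 had the loosest neighbours, Ube3c (0.70), Mtrr (0.67) and Txndc11 (0.66). Among the 10 themselves the highest r was 0.78, between Fgf2 and Fgf18, and the lowest -0.86, between Fgf18 and Fgfr3.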

How the data were processed

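Stranded mRNA libraries of sorted fibroblasts were sequenced on paired-end runs. Per the labels the authors aligned reads with HISAT2 2.2.1 to GRCm38 and deposited whole-number read counts per gene, not normalized. The counting program, its strand setting and the annotation are not given in the sources used here. No batch is named in the labels.

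Sample names in the header gave the sample of each of 44 columns, and 1 line naming no gene held 0 counts. Exon lengths for RPKM were taken from GENCODE M21. Counts were summed per mouse and CD26 class. Sums (6 groups) and, for En1 lineage, libraries (12 groups) were filtered with filterByExpr, scaled by TMM and tested with glmQLFit and glmQLFTest in edgeR 4.0.16 under R 4.3.3, leaving 16601 and 15584 genes. SEs were derived from the F statistic. Depth per library limits low genes: 3 counts are 0.197 to 0.518 CPM, counting error only. A test on simulated data with 200 changed genes recovered 170 to 196 of them. Log2 changes of at least 2 in size were planted, only in genes above a set expression level. Every sum or library was drawn independently, with no shared mouse. The test does not show the power for smaller changes or for a gene as scarce as Fgfr4. Alternatives were DESeq2 1.42.0, other scaling and filters, fewer groups, mice left out and the mouse as a block. Sums of 1 mouse deviated together (r 0.237 to 0.668, 12 mice), and the cause was not tested. No 2 libraries of a group agreed within sampling noise. Replicates are mice. The main fit takes the 2 sums of a mouse as independent, and the En1 fit does so for its libraries. Their p-values therefore ignore the shared mouse, which only the fit with the mouse as a block takes into account.

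The 10 genes and the gene lists were chosen with earlier results of these data known. Text names all 10 in each comparison, fewer in those by tumor model, and, from each pathway list, up to 3 called genes per direction by size, with every other ligand gene that passed the filter. Further genes of the feedback list and the single genes of calls up to 5 were named after their values were seen. Similar genes are the 3 highest by r. A few genes that these rules name are not reported here.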

Additional observations from a re-analysis of the deposited data

Results flagged for a closer look

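Single mice stood apart from the rest of their group in 7 of 40 sets of 4 or 5 values, where chance gives about 1 in 20. WB1P mouse 5 had the highest Fgfr1 of the WB1P CAFs in both classes, 1608 CPM (CD26-) and 2126 CPM (CD26+), next to 776 and 817 CPM in the nearest WB1P mouse, and also the highest Fgf7 of the WB1P CD26- CAFs, 47.7 CPM against 19.1 CPM. WB1P mouse 4, which has only an En1+ library, had the highest Fgfr3 (15.3 CPM, next 6.79) and the highest Fgf1 (2.87 CPM, next 0.739) of the WB1P CD26- CAFs. WB1P-Myc mouse 12, marked 8x8, had the lowest Fgf18 of the WB1P-Myc CD26- CAFs (1.77 CPM, next 6.83) and the highest Fgfr4 of the WB1P-Myc CD26+ CAFs (0.368 CPM, next 0.187), the latter at the edge of detection.

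The CD26 difference was itself different between CAFs and NFs, by the interaction test, for 3 genes around the pathway and for none of the 10. Fgf16 had an interaction of 4.36, Flrt3 of -2.78 and Hs3st3b1 of -1.79 on the log2 scale.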

How the results depend on the processing

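Of 90 pairs of a gene and a comparison, the fits by tumor model not counted, 23 were called, and none of the 23 changed sign under any alternative run. Of these, 11 stayed called in all of them. Of the 67 not called, 24 changed sign somewhere. With only the NF groups fitted, 1 of the 10 genes was called between CD26+ and CD26- NFs, not 4, and leaving out single mice gave 1 to 4. For CAFs against NFs in the CD26+ class leaving out single mice gave 3 to 6, the lowest without control mouse 1. DESeq2 called 1 gene between WB1P-Myc and WB1P CD26- CAFs and 1 in the CD26 interaction, and the mouse as a block 1 in the latter, against 0 each. Leaving out single mice gave 4 to 6 calls for CAFs against NFs in the CD26- class and 6 to 7 between the classes of CAFs, where 5 were left without both mice marked 8x8. The block changed no other call than those given with the results. Over all genes, calls between the NF classes were 692, 202 with only the NFs and 1916 with the block. For the CD26 interaction they were 351, 732 by DESeq2 and 1010 with the block, and for WB1P-Myc against WB1P in the CD26- class 85, 401 by DESeq2 and 6 with only those groups. The last count was also 54 with no filter on low counts, 50 without the 2 mice marked 8x8, as low as 9 without WB1P-Myc mouse 9 or 13 and 243 without WB1P-Myc mouse 12. Without control mouse 3 the NF classes gave 175 calls and the interaction 74. Between the classes of WB1P-Myc CAFs, 3326 calls became 2016 without the mice marked 8x8, 2065 without WB1P-Myc mouse 9 and 5346 with the block. Between En1+ and double- CAFs, 0 became 7 by DESeq2 and 11 with the block. The causes were not tested. The feedback list in CAFs had 13 to 14 calls whichever mouse was left out.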
